A study of Mus musculus with 12 samples.

Results

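The proteasome is the protease that degrades proteins tagged with ubiquitin. Its genes were taken as all protein-coding genes with symbols from Psma to Psmf followed by a digit and at least 10 counts in 3 or more libraries, which gave 45 of the 54532 genes in the count tables. Within them, Psmb8, Psmb9, Psmb10, Psme1 and Psme2 formed the interferon-induced subgroup of 5, and the other 40 were described by their place in the complex. The symbols matched 50 genes, of which 4 were pseudogenes and 1, Psmb11, the thymus-specific catalytic subunit, missed the count minimum with 17 counts over all libraries. All 45 passed the filter on low counts used for testing. For Psma8 the count minimum was met only through libraries of the SN-011 arms.

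RNA came from the striatum of C57BL/6J mice, in 12 libraries of 4 groups of 3. Sham mice had a sham operation and PBS, and vehicle mice had transient middle cerebral artery occlusion, a stroke model, and PBS. The other 6 mice had the occlusion and SN-011, which blocks STING, an adaptor of innate immune sensing of DNA, in arms titled SN011 and 3d-SN011, written here as SN-011 and 3d SN-011. The labels give the same treatment for both arms and do not say what 3d means, nor any time after occlusion, dose, age or sex, so a difference between the arms cannot be assigned to time, dosing or tissue sampled. Nothing in the labels says that libraries were pooled or that each came from a separate animal, so p-values measure the spread between these libraries.

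Proteasomes are built from a barrel-shaped core particle of stacked rings of alpha and beta subunits, capped by a regulatory particle with an ATPase base and a lid that removes ubiquitin. The constitutive beta subunits Psmb5, Psmb6 and Psmb7 carry the proteolytic sites. Interferon induces replacements for them, Psmb8 (LMP7) for Psmb5, Psmb9 (LMP2) for Psmb6 and Psmb10 (MECL-1) for Psmb7, which form the immunoproteasome, and also the cap subunits Psme1 and Psme2, which open the core particle without ATP. In brain, immunoproteasome subunits are known mainly from microglia and other immune cells and are low in resting neurons.

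The stretch of DNA at the start of each gene is shown for members that the results turn on, so that inducible and constitutive genes can be read side by side. Windows of 300 bases, 250 before and 50 after the start, were found in RefSeq's table on GRCm38.p6 for 38 of the 45 genes. They were searched on both strands for 4 motifs: the interferon-stimulated response element, GAAA, 2 bases of any kind and GAAA again, the gamma-activated site TTCNNNGAA, the antioxidant response element TGACNNNGC, through which Nfe2l1 and Nfe2l2 act, and the CCAAT box. Starts are those of RefSeq, which for Psmb8 and Psme1 lie 474 and 371 bases inside the gene bounds of GENCODE printed with the levels. Psmb8, on chr17, held a gamma-activated site on its plus strand, from 97 to 89 bases before the RefSeq start, which is 377 bases after the GENCODE start. Psme1, on chr14, held an interferon-stimulated response element on the minus strand, 10 to 19 bases after the RefSeq start and 380 after the GENCODE start, which reads as its reverse complement on the plus strand. Both sites lie within an exon that GENCODE annotates to the gene itself. Each is shown in capitals in 30 bases, Psmb8 from chr17:34198088-34198117 and Psme1 from chr14:55578493-55578522, both on the plus strand.

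Psmb8 site: tcctccgctgTTCCCAGAAgatgccccccc

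Psme1 site: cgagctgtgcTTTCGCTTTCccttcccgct

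For the constitutive partners Psmb5, from chr14:54618023-54618245 on the minus strand, and Psmb6, from chr11:70525107-70525356 on the plus strand, the part of the window outside annotated exons is given with the antioxidant response element in capitals. Psme2, from chr14:55591114-55591351 on the minus strand, is the neighbour of Psme1 and held none of the 4 motifs.

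Psmb5 upstream: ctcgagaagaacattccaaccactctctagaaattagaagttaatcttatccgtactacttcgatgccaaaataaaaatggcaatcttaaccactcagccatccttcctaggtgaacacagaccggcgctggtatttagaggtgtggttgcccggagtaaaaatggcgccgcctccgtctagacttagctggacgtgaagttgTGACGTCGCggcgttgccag

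Psmb6 upstream: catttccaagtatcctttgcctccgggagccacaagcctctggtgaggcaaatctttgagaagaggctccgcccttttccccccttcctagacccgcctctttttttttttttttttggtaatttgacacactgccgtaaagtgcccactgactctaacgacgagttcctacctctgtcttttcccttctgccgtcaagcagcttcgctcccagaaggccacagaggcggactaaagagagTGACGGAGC

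Psme2 upstream: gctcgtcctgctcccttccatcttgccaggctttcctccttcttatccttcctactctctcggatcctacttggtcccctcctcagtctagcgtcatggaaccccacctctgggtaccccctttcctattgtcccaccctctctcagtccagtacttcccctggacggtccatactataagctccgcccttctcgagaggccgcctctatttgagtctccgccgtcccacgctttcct

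Of the 5 interferon-induced genes, 1 window held the response element, against 3 of 33 other members and 3.44% of all 32851 windows. The gamma-activated site was in 1 of 5 and 1 of 33, against 8.3% of all windows. The antioxidant response element was in 0 of 5 and 6 of 33, against 12.4%, and the CCAAT box in 1 of 5 and 13 of 33, against 37.4%. A match is a description of these letters, and its absence says only that they are not in this window.

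Before the members are compared, 3 facts of the series bear on them. Libraries held 15806076 to 18622053 counts, and no 2 libraries of a group agreed within sampling noise. Vehicle and sham libraries had overlapping summed levels of striatal projection neuron markers, 9254 to 9669 CPM in vehicle and 9058 to 9714 CPM in sham, where CPM is counts per 1000000 after TMM scaling. In 3d SN-011 these 10 markers summed to 373 to 2261 CPM while the 8 microglia markers summed to 2142 to 3662 CPM, against 410 to 438 CPM in sham. In the SN-011 arm, replicate 3 stood apart, with striatal projection neuron markers at 5341 CPM and microglia markers at 1522 CPM, where the other 2 replicates had 8742 and 9554 CPM, and 637 and 484 CPM. In whole tissue, fewer cells of a type and less RNA per cell cannot be told apart.

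The interferon-induced subunits rose in 3d SN-011, all 5 of them, whichever group they were set against. Relative to sham the log2 fold changes ran down from 4.23 to 1.26, in order Psmb8, Psmb9, Psmb10, Psme1 and Psme2. Of all 45 genes, 19 passed the test in that comparison, 13 higher and 6 lower, where 57.6% of the 18537 genes tested were called in either direction, 29.8% higher and 27.9% lower. By another measure, groups without overlap, 16 members were higher and 8 lower, where 31.8% and 31.5% of all genes were. Psma8 is among the 13 and the 16, and without it 18 of 44 genes were called, 12 of them higher. The members' share called was thus below the background, and the members' median absolute log2 fold change, 0.21, was below the 0.70 of all genes tested. The test throughout is edgeR's quasi-likelihood test with Benjamini-Hochberg adjustment over all genes tested, at 0.05.

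Psmb8 encodes the inducible subunit that takes the place of Psmb5 (chr17:34197721-34201454, GRCm38). It stood at 1.46, 2.12 and 1.27 CPM in sham, at 1.19, 2.21 and 2.64 CPM in vehicle, at 6.88, 2.75 and 10.03 CPM in SN-011 and at 42.2, 26.0 and 23.2 CPM in 3d SN-011. Every 3d SN-011 library was above every other library, and every SN-011 library was above all sham and vehicle libraries. The log2 fold change of 3d SN-011 was 4.23 ± 0.46 (SE) against sham (edgeR adjusted p = 1.64e-05), 3.92 ± 0.45 against vehicle (2.37e-05) and 2.21 ± 0.41 against SN-011 (0.000961).

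Psmb9, which replaces Psmb6, lies close by on the same chromosome (chr17:34181987-34187764). Its levels were 1.58, 1.82 and 1.39 CPM in sham, 1.25, 2.73 and 1.35 CPM in vehicle, 5.43, 2.22 and 7.07 CPM in SN-011 and 19.6, 20.8 and 9.64 CPM in 3d SN-011. Replicate 3 was the low one of the 3d SN-011 libraries, still above every library of the other groups. The log2 fold change was 3.38 ± 0.45 against sham (edgeR adjusted p = 5.27e-05), 3.23 ± 0.45 against vehicle and 1.76 ± 0.41 against SN-011. Of Psmb9's exon bases, 5.79% overlap those of Tap1 on the opposite strand, and of Psmb8's, 14.7% overlap the antisense gene Gm20496. Whether counting used strand is not stated, so reads there cannot be assigned to 1 gene.

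Psmb10, which replaces Psmb7 (chr8:105935735-105938444), started from a higher level. It was at 7.34, 10.5 and 9.13 CPM in sham, 7.18, 7.09 and 13.2 CPM in vehicle, 13.8, 8.25 and 18.7 CPM in SN-011 and 50.5, 43.0 and 36.3 CPM in 3d SN-011. The rise in 3d SN-011 was 2.26 ± 0.31 on the log2 scale against sham (edgeR adjusted p = 5.71e-05), 2.24 ± 0.31 against vehicle and 1.67 ± 0.30 against SN-011. Vehicle, sham and SN-011 libraries overlapped.

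Psme1 and Psme2 encode the alpha and beta subunits of the interferon-induced cap and are neighbours (chr14:55578123-55581529 and chr14:55587441-55591113). Psme1 was at 17.5, 14.7 and 19.5 CPM in sham, 19.4, 19.8 and 21.6 CPM in vehicle, 23.1, 17.2 and 37.3 CPM in SN-011 and 68.0, 77.5 and 56.7 CPM in 3d SN-011. Psme2 was at 12.7, 11.6 and 11.6 CPM in sham, 12.1, 10.2 and 11.3 CPM in vehicle, 13.5, 9.83 and 16.8 CPM in SN-011 and 32.6, 30.002 and 23.6 CPM in 3d SN-011. Against sham, Psme1 rose by 1.97 ± 0.24 and Psme2 by 1.26 ± 0.19 on the log2 scale (edgeR adjusted p = 2.65e-05 and 0.000133). Per kilobase of transcript in sham, Psme1 at 15.5 and Psme2 at 12.4 CPM were above Psmb10 at 6.87, Psmb9 at 1.18 and Psmb8 at 0.993 CPM, so the 3 genes with the lowest levels had the 3 largest log2 fold changes.

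**Figure D1:**
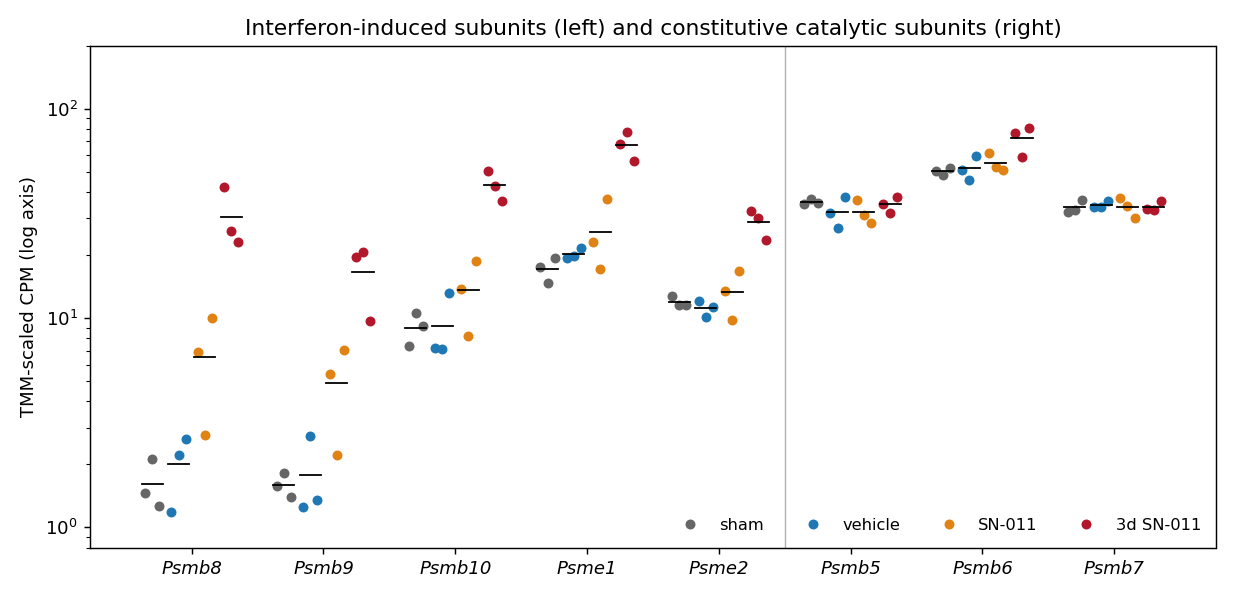
TMM-scaled CPM (log axis) of the 5 interferon-induced subunits and the 3 constitutive catalytic subunits in each of the 12 libraries, with the group mean as a bar. All 3d SN-011 points of the interferon-induced subunits lie above every point of the other groups, while those of Psmb5 and Psmb7 overlap sham.

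In the SN-011 arm no member passed the test against sham, where 0.113% of all genes were called, or against vehicle, where 0.0162% were. At an unadjusted edgeR p under 0.05 there were 4 of 45 members in each. Of the 18537 genes tested there were 2368 against sham and 2050 against vehicle, so the members' share was below that of all genes. Against sham the members were Psmb8, Psmb9, Psme1 and Psme2b, and against vehicle Psma8, Psmb8, Psmb9 and Psme2b. Psma8 met the count minimum only through the SN-011 arms, so its p is not evidence of a difference. Psmb8 differed from sham by 2.02 ± 0.45 on the log2 scale (edgeR adjusted p = 0.081) and Psmb9 by 1.62 ± 0.45 (0.138). DESeq2 called both, with adjusted p of 0.00063 for Psmb8 and 0.013 for Psmb9, and so did edgeR without SN-011 replicate 2, the replicate nearest to sham, at 0.0069 and 0.019. Over all alternatives the adjusted p of these genes against sham ran from 0.00021 to 0.37 for Psmb8 and from 0.0051 to 0.72 for Psmb9. The median log2 fold change of the 5 interferon-induced subunits against sham was 0.59, and 0.29 without SN-011 replicate 3.

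The replicates of the SN-011 arm ranked the same way for these subunits and for the microglia markers. The median over the 5 subunits of log2 (CPM + 0.5) over the sham mean was 0.60 in replicate 1, 0.01 in replicate 2 and 1.10 in replicate 3. For the 8 microglia markers it was 0.65, 0.24 and 1.82. The order was not particular to microglia. Astrocyte markers had it too (0.56, 0.26 and 1.42), and neuron markers had the reverse (-0.40, -0.10 and -0.71). Oligodendrocyte markers had neither (0.26, -0.31 and 0.14). In 3d SN-011 the subunits had medians of 2.44, 2.21 and 1.97, and the microglia markers 3.08, 2.89 and 2.31. The part of microglia or of any other cell type in the rise of the subunits was not tested.

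Between vehicle and sham no member passed, and 0% of all genes were called. No member had an unadjusted p under 0.05 there with edgeR, where 467 of the 18537 genes tested had, and DESeq2 called no member. All 12 libraries share 1 estimate of the spread in the edgeR fit, and 3d SN-011 replicates differed more from each other than sham or vehicle replicates did. The test may therefore miss small differences between vehicle and sham. The largest difference of an interferon-induced subunit was 0.31 ± 0.48 on the log2 scale, for Psmb8, and the medians were 0.15 for the 5 interferon-induced and -0.01 for the 40 other genes.

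The constitutive catalytic subunits gave a different picture. Psmb5, which carries the chymotrypsin-like site, was at 35.3, 37.0 and 35.7 CPM in sham and 35.0, 31.9 and 37.9 CPM in 3d SN-011, and Psmb7, with the trypsin-like site, was at 32.1, 32.8 and 36.6 CPM and 33.1, 32.8 and 36.2 CPM. Their log2 differences of -0.04 ± 0.14 and 0.01 ± 0.11 did not pass the test. Psmb6, with the caspase-like site, was at 50.4, 48.3 and 52.1 CPM in sham and rose to 76.7, 58.9 and 81.3 CPM, by 0.52 ± 0.14 on the log2 scale (edgeR adjusted p = 0.00641). With offsets for GC content and transcript length Psmb6 differed by 0.28 (adjusted p = 0.086), and the call ended.

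**Figure D2:**
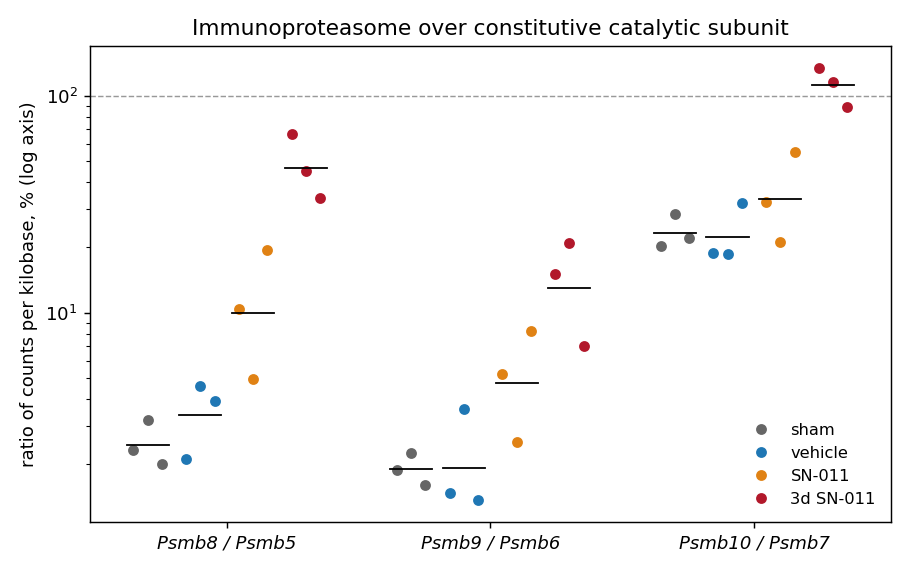
Counts per kilobase of principal transcript of each immunoproteasome subunit as a percentage of the constitutive subunit it replaces (log axis), in each library. Bars give the geometric mean of each group, and the dashed line equal levels at these transcript lengths. The 3d SN-011 libraries lie at 33.9% to 66.5% for Psmb8 over Psmb5 and at 88.7% to 135% for Psmb10 over Psmb7.

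Because a ratio within a library does not depend on scaling, each inducible subunit was also set against its partner per kilobase of transcript. The length was that of 1 principal transcript per gene, 1311 bases for Psmb10 and 1160 for Psmb7, where all annotated exons span 1705 and 3421. The percentages depend on that choice, while differences between groups in the log2 ratio hardly do. Psmb8 was 2.32%, 3.21% and 2.01% of Psmb5 in sham, 2.12%, 4.59% and 3.90% in vehicle, 10.4%, 4.94% and 19.4% in SN-011 and 66.5%, 44.97% and 33.9% in 3d SN-011. The 4 groups were thus in the order sham or vehicle, SN-011 and 3d SN-011, and the latter 2 overlapped neither each other nor the first 2. Psmb9 was 1.88%, 2.26% and 1.61% of Psmb6 in sham, 1.47%, 3.58% and 1.37% in vehicle, 5.22%, 2.53% and 8.19% in SN-011 and 15.1%, 20.8% and 7.01% in 3d SN-011. Here the 2 SN-011 arms overlapped.

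Psmb10 was the inducible subunit closest to its partner. It stood at 20.3%, 28.5% and 22.1% of Psmb7 in sham, 18.8%, 18.6% and 32.0% in vehicle, 32.5%, 21.2% and 54.8% in SN-011 and 135%, 116% and 88.7% in 3d SN-011. For 3d SN-011 against sham the log2 ratio differed by 4.24, 2.78 and 2.25 for the pairs with Psmb8, Psmb9 and Psmb10. Each gave a two-sided exact permutation p of 0.1, the smallest that 3 against 3 libraries allow, and 0.164 after adjustment over the 18 pairs and comparisons. Averaged over the 3 pairs, the difference was 3.09 against sham, 2.96 against vehicle and 1.80 against SN-011. SN-011 differed from sham by 1.29 and from vehicle by 1.15. These ratios compare RNA of whole tissue and do not give the make-up of any proteasome.

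The 45 genes together took 2213 to 2298 of every 1000000 raw counts in sham and vehicle libraries, 2228 to 2360 in SN-011 and 2522 to 2751 in 3d SN-011. With TMM scaling they summed to 2329 to 2389 CPM in sham and 2346 to 2648 CPM in 3d SN-011, so the groups then overlapped. The 5 interferon-induced genes made up 1.74% to 1.79% of the members' counts in sham and 1.73% to 2.16% in vehicle. In SN-011 their share was 2.63%, 1.77% and 4.05%, and in 3d SN-011 it was 9.07%, 7.98% and 5.64%. Replicate 3 of 3d SN-011 had the lowest share of the 3 and the highest total.

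**Figure D3:**
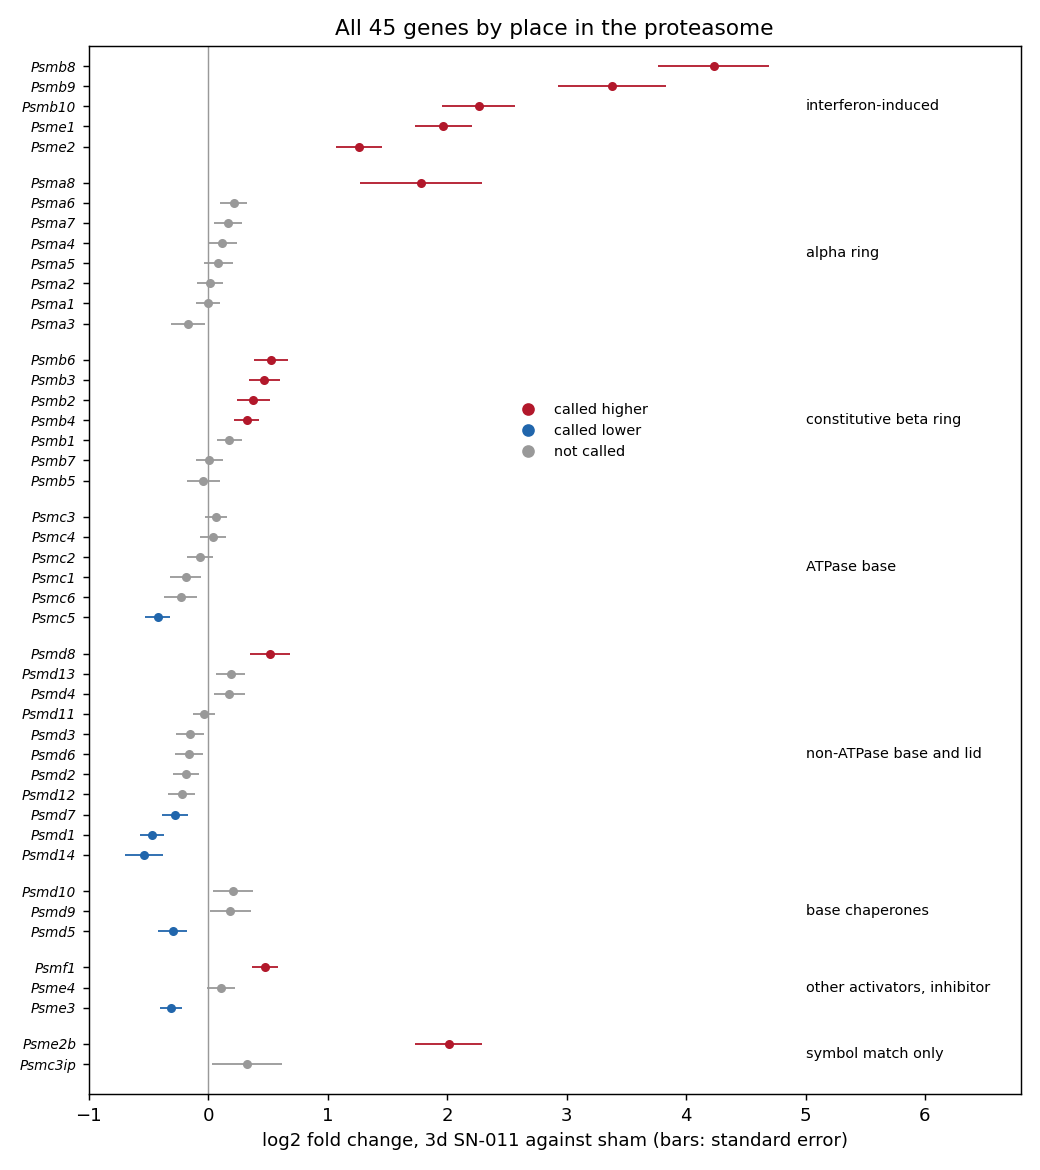
The log2 fold change of 3d SN-011 against sham with its standard error for each of the 45 genes, grouped by place in the proteasome and coloured by whether the gene was called higher, lower or not. The interferon-induced subunits, Psma8 and Psme2b lie above 1, and every other gene lies between -0.54 and 0.52.

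In 3d SN-011 against sham 29.8% of all genes tested were called higher and 27.9% lower. Among the other 40 genes, 8 were called higher, Psma8 among them, and 6 lower. Their median log2 fold change was 0.05 and their median absolute log2 fold change 0.19, against 0.01 and 0.70 over all genes tested. With the offsets for GC content and transcript length, 4 of them were called higher and 12 lower and the median turned to -0.05. Over all 45 genes the split was then 9 higher and 12 lower, where 30.8% of all genes tested were called higher and 28.3% lower in that fit. Which of the small differences below passed the test therefore depends on that choice.

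The alpha ring gates the core particle. Of its 8 genes, the 7 that met the count minimum in every library did not pass the test in 3d SN-011 against sham. The other is Psma8, the testis-specific relative of Psma7, at counts of 9, 3 and 5 in sham, 1, 2 and 4 in vehicle, 10, 4 and 12 in SN-011 and 23, 28 and 19 in 3d SN-011. It was near the detection limit outside 3d SN-011, and since only the SN-011 arms brought it past the count minimum, its log2 difference of 1.78 ± 0.51 from sham is given with no test. The other 7 ran from -0.17 ± 0.14 for Psma3 to 0.21 ± 0.11 for Psma6. Psma7 was at 59.9, 62.9 and 59.3 CPM in sham and at 58.9, 63.9 and 81.4 CPM in 3d SN-011, and Psma8 shares no stretch of 50 bases with it.

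Over all genes tested, 29.8% were called higher and 27.9% lower in 3d SN-011 against sham. Of the 7 constitutive beta ring genes, 4 rose and none fell, with a median of 0.32. Beside Psmb6 these were the structural subunits Psmb3 (0.47 ± 0.13, edgeR adjusted p = 0.00808), Psmb2 (0.38 ± 0.14, 0.0316) and Psmb4 (0.32 ± 0.10, 0.0189). Psmb3 went from 37.4, 35.8 and 36.2 CPM in sham to 44.4, 49.7 and 57.3 CPM, without overlap. With the offsets, none of the 4 was called (Psmb3 at 0.27, Psmb2 at 0.17, Psmb4 at 0.03), while Psmb5 was called lower. Psmb2 and Psmb4 also lost their calls without any 1 of the sham libraries, Psmb2 without 3d SN-011 replicate 2 and Psmb4 without 3d SN-011 replicate 3.

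In the ATPase base, whose 6 subunits unfold substrates, 1 gene fell and none rose, with a median of -0.13. Over all genes tested 27.9% were called lower and 29.8% higher, so this list was called less often. Psmc5 went from 94.8, 92.4 and 101 CPM in sham to 68.1, 72.4 and 74.4 CPM in 3d SN-011, and all sham libraries were above all 3d SN-011 libraries. It fell by 0.42 ± 0.11 on the log2 scale (edgeR adjusted p = 0.00423), and by 0.71 with the offsets. The other 5 lay between -0.23 ± 0.14 for Psmc6 and 0.06 ± 0.10 for Psmc3.

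Of the 11 non-ATPase genes of the base and lid, 1 rose and 3 fell, with a median of -0.16. The share that fell was near the 27.9% of all genes called lower. The share that rose was below the 29.8% called higher. Psmd1, a large scaffold subunit of the base, went from 94.7, 97.4 and 99.1 CPM to 65.7, 76.4 and 68.5 CPM (-0.47 ± 0.10, edgeR adjusted p = 0.00157). Psmd14, the deubiquitinase of the lid, went from 57.2, 58.4 and 62.1 CPM to 29.1, 49.6 and 43.5 CPM (-0.54 ± 0.16, 0.0121), and by -0.35 without 3d SN-011 replicate 1, its lowest library. Psmd7, its catalytically inactive partner, fell by 0.28 ± 0.11 (0.0435), a call that 8 alternatives did not keep.

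Psmd8, a lid subunit, went the other way. It was at 59.8, 62.1 and 65.3 CPM in sham and at 76.4, 71.3 and 120 CPM in 3d SN-011, where replicate 3 stood far above the other 2. The rise was 0.52 ± 0.16 (edgeR adjusted p = 0.0163), 0.24 without that library (0.048) and 0.20 with the offsets (0.29). The 7 genes that did not pass ran from -0.22 ± 0.11 for Psmd12 to 0.19 ± 0.12 for Psmd13, among them the ubiquitin receptors Psmd2 (-0.19 ± 0.11) and Psmd4 (0.17 ± 0.13).

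Counted together and without Psma8, the core particle had 4 of 14 genes higher (28.6%) and none lower, and the regulatory particle 1 of 17 higher (5.88%) and 4 lower (23.5%). Over all genes tested 29.8% were higher and 27.9% lower, so the core particle's share higher and the regulatory particle's share lower were near those of all genes. The difference between the particles was not tested. Against vehicle the counts were 3 higher and none lower, and 1 higher and 4 lower, of 18 members called (12 higher and 6 lower, where 57.1% of all genes were called, 28.9% higher and 28.2% lower). Against SN-011 they were 4 higher and none lower, and 1 higher and 2 lower, of 15 members called (13 higher and 2 lower, where 46.4% of all genes were called, 23.6% higher and 22.9% lower). Psma8 is 1 of the members called higher in each. With the offsets, the regulatory particle had no gene higher and 10 of 17 lower against sham (58.8%), where 28.3% of all genes were called lower. Psmc5, Psmd1 and Psmf1 kept their calls against sham and against vehicle under every alternative.

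**Figure D4:**
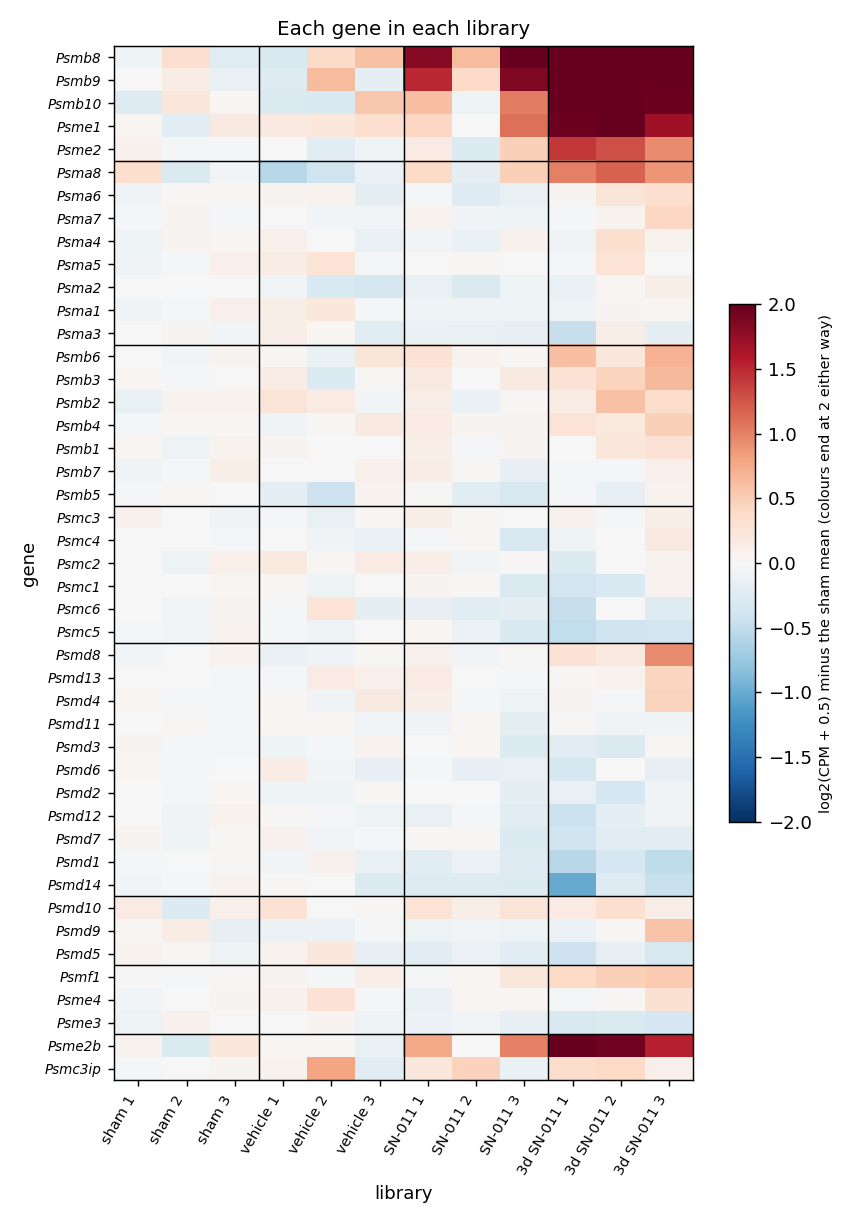
log2 (CPM + 0.5) of each of the 45 genes in each library minus the mean of the 3 sham libraries, in colours that end at 2 either way, with genes grouped as in the plot of fold changes. The 5 interferon-induced subunits and Psme2b are high in all 3d SN-011 libraries. In SN-011 the 5 subunits lie 0.17 to 1.82 above the sham mean in replicate 1, -0.27 to 0.64 in replicate 2 and 0.47 to 2.34 in replicate 3, and Psmd8 is high in 3d SN-011 replicate 3.

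The base is assembled with the help of the chaperones Psmd5, Psmd9 and Psmd10. Psmd5 fell by 0.30 ± 0.12 (edgeR adjusted p = 0.0442), a call that the offsets (adjusted p = 0.17) and most alternatives ended, while Psmd9 (0.19 ± 0.17) and Psmd10 (0.21 ± 0.17) did not pass. Psmf1, an inhibitor of the core particle, rose from 26.5, 25.5 and 26.4 CPM to 34.6, 36.6 and 38.0 CPM, by 0.48 ± 0.11 (0.00214). Psme3, the nuclear cap subunit of the same family as Psme1 and Psme2, fell from 84.7, 96.4 and 91.8 CPM to 73.0, 74.7 and 71.5 CPM, by 0.32 ± 0.09 (0.0114). Psme4, a single-chain cap, was at 0.11 ± 0.12. Among the subunits of this family of caps, Psme1 and Psme2 thus rose and Psme3 fell.

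Genes taken in by symbol alone are Psmc3ip, a recombination factor that is no proteasome subunit, and Psme2b, a near copy of Psme2. Psmc3ip differed by 0.33 ± 0.29 and did not pass. Psme2b went from 3.21, 2.42 and 3.63 CPM in sham to 14.4, 13.1 and 9.91 CPM in 3d SN-011 (2.01 ± 0.28, edgeR adjusted p = 7.41e-05). Since 68.7% of the 50-base stretches of Psme2b also occur in Psme2, its counts and part of those of Psme2 are uncertain.

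Genes that work with the proteasome were read from lists. In 3d SN-011 against sham 57.6% of all genes tested were called, 29.8% higher and 27.9% lower. Of 7 regulators of proteasome genes, 3 rose and 1 fell in 3d SN-011 against sham. Nfe2l1, the transcription factor that restores proteasome genes after inhibition, fell by 0.59 ± 0.11, while the stress factor Nfe2l2 rose by 2.42 ± 0.33, and the small partners Maff and Mafk by 3.55 ± 0.45 and 1.81 ± 0.29. Of 19 assembly, bound and shuttle factors tested, 4 rose and 8 fell. The regulators and these factors were thus called about as often as all genes. Pomp, the maturation factor of the core particle, rose by 0.40 ± 0.12, whereas the shuttle factors Ubqln2 and Ubqln4 fell by 1.26 ± 0.13 and 1.34 ± 0.12, the deubiquitinase Usp14 by 0.97 ± 0.12 and the ligase Ube3c by 0.98 ± 0.11. Of 9 genes of ubiquitin supply and p97, 1 rose (Rps27a, 2.03 ± 0.31) and 2 fell (the activating enzymes Uba1, by 0.43 ± 0.11, and Uba6, by 0.67 ± 0.20). This list was called less often than all genes. With the offsets Uba6 was at -0.04 and its call ended.

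The class I peptide pathway, which carries proteasome products to the cell surface, rose with the immunoproteasome, in 11 of 12 genes against sham, with a median of 2.26. Over all genes tested 29.8% were called higher and the median was 0.01. The peptide transporter genes Tap1 and Tap2 rose by 3.93 ± 0.43 and 2.21 ± 0.28, tapasin (Tapbp) by 2.31 ± 0.24, the class I activator Nlrc5 by 3.95 ± 0.64 and H2-K1 by 3.03 ± 0.41. H2-K1 has near-identical relatives, so its counts are uncertain. Of 12 interferon signalling genes tested, 10 rose and none fell, with a median of 1.80, among them Stat2 (1.59 ± 0.17), Irf1 (2.62 ± 0.32), Irf8 (3.63 ± 0.42), Ifngr1 (1.79 ± 0.19) and Ifngr2 (1.86 ± 0.18). Ifng and Ifnb1, genes of the interferons themselves, had too few counts to be tested. In the SN-011 arm no gene of these lists named here passed, with Tap1 at 2.11 ± 0.41 against sham (edgeR adjusted p = 0.0592).

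**Figure D5:**
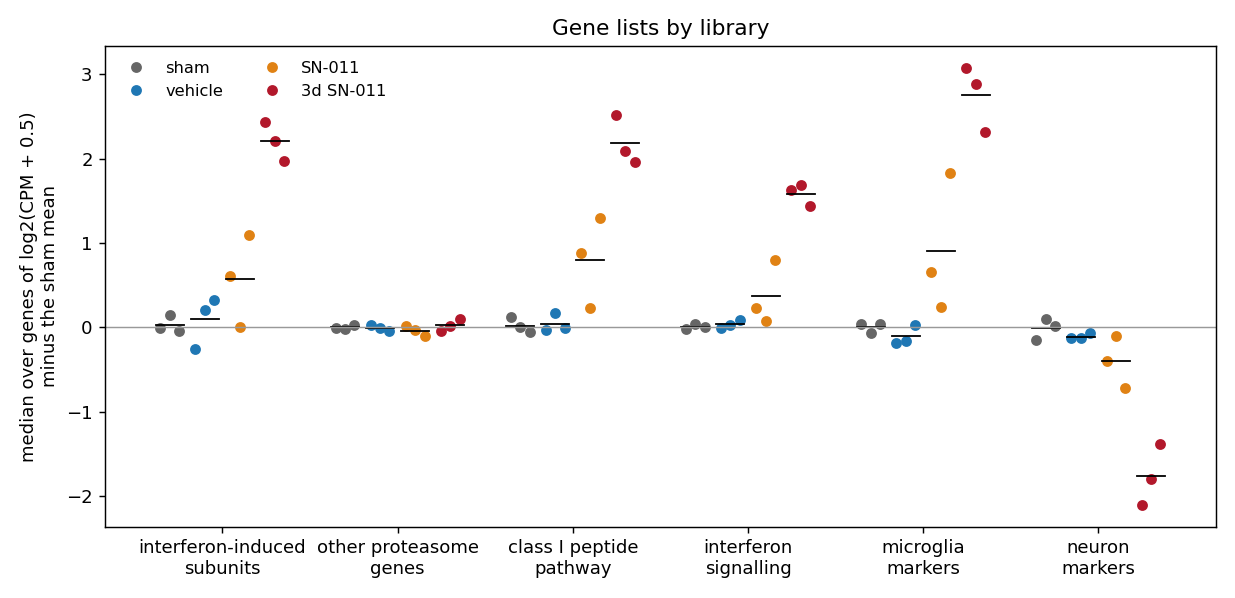
For 6 gene lists, the median over genes of log2 (CPM + 0.5) minus the sham mean in each library, with group means as bars. The other proteasome genes stay near 0 in all groups, while the interferon-induced subunits, class I and interferon signalling genes and microglia markers are highest in 3d SN-011, where neuron markers are lowest.

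Cell type markers moved in the same comparison, in which 29.8% of all genes tested were called higher and 27.9% lower. All 8 microglia markers rose in 3d SN-011 against sham, and all 8 neuron markers and all 10 striatal projection neuron markers fell. Of 6 astrocyte markers 5 rose and none fell, and their summed level went from 4357 to 4549 CPM in sham to 10056 to 14884 CPM. Of 6 oligodendrocyte markers 4 rose and none fell, with sums of 9247 to 11849 and 14952 to 23737 CPM, and of 6 endothelium markers 2 rose and 2 fell, with sums of 324 to 355 and 281 to 439 CPM. Of 7 monocyte and border macrophage markers tested 5 rose and 1 fell, but their summed level was 24.3 to 50.1 CPM against 16.8 to 20.4 in sham. Of 12 T, B and NK cell markers 5 had enough counts to be tested, and of these Cd4 fell. Cd3g, Cd8a and Nkg7 were called higher, with 112, 147 and 95 counts over all libraries. These 3 reached at most 2.76, 3.12 and 1.78 CPM in any library and may have passed the filter only through 3d SN-011. Their calls are therefore not evidence of a rise. The list summed to 83.6 to 95.5 CPM in sham and 20.2 to 25.8 in 3d SN-011, most of it Cd4, and Ncr1 and Ms4a1 stayed under 0.3 CPM in every library. Of 7 neutrophil markers 2 were tested and 1, Csf3r, rose, by 3.78 ± 0.56. Their sum went from 12.2 to 13.5 CPM in sham to 80.3 to 232 CPM, nearly all of it Csf3r (77.8 to 231 CPM). Of the others, S100a8, S100a9 and Retnlg reached at most 1.83, 0.74 and 0.59 CPM in any library. Ly6g, Mpo and Elane stayed under 0.3 CPM. The part of these cell types in the differences of proteasome genes was not tested.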

How the data were processed

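Per the labels' protocols, Trizol RNA was selected for polyA+ and sequenced from both ends. The authors deposited 1 table of raw read counts per library, and the submitters' processing notes name HISAT2, featureCounts and mm10. Tool versions, annotation and the use of strand in counting are not stated there. Counts sum to 15806076 to 18622053 per library, and 0 entries named no gene. Deposited values were used as they are.

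Of 54532 genes, 54409 had a symbol in the reference names. Counts were tested in R 4.3.3 with edgeR 4.0.16: filterByExpr with minimum count 10, which left 18537 genes, TMM scaling, and 1 quasi-likelihood fit of all 12 libraries with group as the only term. In each of 6 comparisons, called means an adjusted p (Benjamini-Hochberg, all genes) under 0.05. The standard error is the log2 fold change over the root of the F statistic. Ratios used counts plus 0.5 per kilobase of the principal coding transcript and two-sided exact permutation tests. The script was checked on simulated counts with known changes. Gene positions and exons are from GENCODE M21 (GRCm38), promoter windows from RefSeq on GRCm38.p6.

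The members and gene lists were chosen with earlier results of these data known. Genes named were, in each comparison, the interferon-induced and constitutive catalytic subunits, the up to 5 largest rises and falls among other members called, in the comparison with most calls also the median of each structural list and every member not called or against its list, up to 4 called genes of each pathway list, and Tap1, Tap2, Irf1, Nlrc5, Nfe2l1, Pomp and Psmf1; some genes the rule names are not reported here. Psmb2, Psmb3 and Psmd7 were added after their values were seen, to complete counts. Alternatives were RLE scaling, DESeq2 1.42.0, no filter on low counts, fitting only the 2 groups compared, a block for the replicate number, voom weights in limma 3.58.1, GC and length offsets, other pseudocounts and pairs for the ratio, and each library left out. A fit without vehicle replicate 3 and SN-011 replicate 3 was chosen after seeing the data. Figures were drawn with matplotlib 3.10.9.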

Additional observations from a re-analysis of the deposited data

How the results depend on the processing

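All 5 interferon-induced subunits kept their calls in 3d SN-011 against each other group under every alternative run. Of 52 called pairs of member and comparison, 27 were kept in every alternative. With offsets for GC content and length, the median log2 fold change of these 5 was 1.94 against sham and 1.92 against vehicle, and without vehicle replicate 3 and SN-011 replicate 3 it was 2.59 against vehicle. The median of the other 40 genes with the offsets was -0.052 for 3d SN-011 against sham, -0.089 against vehicle, -0.021 against SN-011, and -0.099 for SN-011 against sham. With voom it was 0.023 for 3d SN-011 against SN-011 and 0.021 for vehicle against sham, and without the 2 libraries 0.016 for SN-011 against vehicle. Psmb4 turned to -0.0081 for 3d SN-011 against vehicle with the offsets. Psme1 turned to -0.010 for SN-011 against vehicle, and Psme2 to -0.036 for SN-011 against sham, without SN-011 replicate 3, and Psme2 also to -0.037 without vehicle replicate 3 and SN-011 replicate 3. The number of members called for SN-011, 0 against sham and 0 against vehicle, was 2 in each with no filter, DESeq2 or voom (Psmb8 and Psmb9). For 3d SN-011 against SN-011 it was 7 with no filter, 6 with only the libraries compared and 8 with voom, against 15. The shares of all genes called in these other fits are not given here, so a change in these counts is not a result about the members. Averaged over Psmb9/Psmb6 and Psmb10/Psmb7 alone, the log2 ratio of 3d SN-011 against sham differed by 2.52. The cause was not tested.

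With 1 library left out, the number of members called ran from 12 to 20 for 3d SN-011 against sham, from 12 to 19 against vehicle and from 7 to 13 against SN-011. It ran from 0 to 2 for SN-011 against sham and against vehicle. Leaving out a library changes the test for all genes, whose share called is not given for these fits. The counts are therefore not a result about the members. The interferon-induced median for 3d SN-011 against vehicle ran from 2.08 to 2.59. The median of the other genes ran from -0.024 to 0.092 for 3d SN-011 against sham, from -0.022 to 0.072 against vehicle, and from -0.089 to 0.010 for SN-011 against vehicle. Psme1 ran from -0.010 to 0.57 for SN-011 against vehicle and Psme2 from -0.036 to 0.34 for SN-011 against sham. Same-numbered libraries had correlations of deviations from -0.29 to 0.14, so no pairing by number was seen, though 3 libraries per group cannot exclude one. With the replicate number as a block, 18 members were called for 3d SN-011 against sham, 17 against vehicle and 12 against SN-011, again without the share of all genes in that fit. Of 69 pairs of named gene and comparison that were not called, 31 turned sign in some alternative, at a log2 fold change of at most 0.35 in size. Psma8, with at most 28 counts, is limited by depth.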
